A study of Mus musculus with 6 samples.

Results

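Type I interferon stimulated genes are the transcripts that cells raise when alpha and beta interferons bind their receptor. The listed set holds 40 of these genes, chosen by name as known members of the interferon response, at a time when earlier results of these arrays were known. Of the 40, 35 had a probe set on the array, out of 12700 genes tested, and Ddx58, Ifi44, Oas1g, Phf11d and Xaf1 had no probe set named here. Each gene was represented by the brightest probe set, by the mean of 6 arrays, among those whose gene symbol cell holds it. The probe set of Isg15 is also assigned to Gm9706. That of Ifi203 is also assigned to Ifi203-ps and LOC100862473, and that of Ifi204 to Mndal, Ifi211 and Ifi205, so these 3 values cannot be given to 1 gene alone.

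The arrays measured total RNA of magnetically separated CD4+CD25+ cells, a separation made to obtain regulatory T cells (Treg), which restrain immune responses and depend on the transcription factor Foxp3. The 3 Dnmt1 knockout arrays came from fl-DNMT1/Foxp3cre mice of the C57BL6 strain, in which Cre recombinase follows Foxp3 expression and so acts on a floxed Dnmt1 gene, coding for the maintenance DNA methyltransferase, in Foxp3-expressing cells. The 3 wild type arrays came from wild type C57BL6 mice, and the labels name no Cre or floxed allele in them, so effects of these alleles cannot be told apart from that of the deletion. The labels give no age, sex or number of animals behind a sample, so the spread behind each p-value is that between these samples and may be technical. The values are log2 expression summaries made with RMA, which subtracts background, equalises the arrays and summarises each probe set in 1 value.

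In the interferon response, the receptor activates the kinases Jak1 and Tyk2, which phosphorylate Stat2. Together with Irf9 it takes part in the factor ISGF3, which binds a DNA element called the interferon-stimulated response element in front of the target genes. The targets include effectors that block viral replication, sensors of foreign or misplaced nucleic acids that lead to more interferon, and signalling genes that amplify or end the response. Many of them are also transcribed at a low tonic level in resting lymphocytes.

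The response element was searched in RefSeq promoter windows of build GRCm38.p6, which reach from 250 bases before to 50 bases after an annotated start. The letters searched were GAAANNGAAA, on both strands and with overlaps counted. A window was found for 29 of the 40 listed genes, and 14 of these 29 had a match, a share of 48.3%, against 3.99% of the 27025 genes with a window in the whole table. Of the measured genes with all knockout arrays above all wild type arrays, 11 had a window and 6 of them a match, and of the other measured genes 6 of 13 had one. A match is a description of letters and not a binding site. The promoters of Oas1a, Isg15, Ifit1 and Ifit3 are shown as examples of effectors with 2 or 3 matches. They do not stand for all genes with large differences between the groups. Oasl2 (log2 difference 1.15) had 0 matches and Rsad2 (0.88) had 1, and both differences were larger than those of Isg15 and Ifit1. All are written 5′ to 3′ on the gene's strand, with the matches in capitals. They lie at chr5:120907476-120907775 (minus strand), chr4:156200769-156201068 (minus strand), chr19:34640639-34640938 (plus strand) and chr19:34583279-34583578 (plus strand).
Oas1a: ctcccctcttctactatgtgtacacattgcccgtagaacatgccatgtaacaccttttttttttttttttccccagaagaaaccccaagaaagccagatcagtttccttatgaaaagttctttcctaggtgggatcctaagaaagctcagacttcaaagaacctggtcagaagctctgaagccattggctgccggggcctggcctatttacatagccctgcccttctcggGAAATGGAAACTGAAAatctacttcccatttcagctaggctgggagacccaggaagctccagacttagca
Isg15: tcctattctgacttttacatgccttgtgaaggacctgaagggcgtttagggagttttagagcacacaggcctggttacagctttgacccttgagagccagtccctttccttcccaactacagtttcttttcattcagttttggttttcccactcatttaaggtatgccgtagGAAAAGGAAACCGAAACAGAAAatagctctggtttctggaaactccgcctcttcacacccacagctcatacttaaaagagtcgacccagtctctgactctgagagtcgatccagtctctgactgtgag
Ifit1: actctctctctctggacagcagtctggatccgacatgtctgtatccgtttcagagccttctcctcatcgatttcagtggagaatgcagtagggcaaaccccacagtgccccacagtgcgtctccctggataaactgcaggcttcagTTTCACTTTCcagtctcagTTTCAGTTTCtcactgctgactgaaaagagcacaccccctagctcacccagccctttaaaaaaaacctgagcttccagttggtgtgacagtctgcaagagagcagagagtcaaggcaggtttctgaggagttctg
Ifit3: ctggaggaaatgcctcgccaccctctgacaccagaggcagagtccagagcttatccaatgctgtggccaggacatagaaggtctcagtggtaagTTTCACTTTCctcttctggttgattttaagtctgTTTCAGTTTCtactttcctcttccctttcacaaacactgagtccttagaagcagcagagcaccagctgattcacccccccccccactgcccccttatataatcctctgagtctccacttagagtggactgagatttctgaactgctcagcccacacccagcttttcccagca
Oas1a held 2 overlapping matches, the first beginning 20 bases before the start, and Isg15 held 3 overlapping ones, the first beginning 78 bases before it. In Ifit1 and Ifit3 the matches ran on the opposite strand, 2 in each window, and the farthest began 104 bases before the start in Ifit1 and 156 bases before it in Ifit3. Matches were also found in Bst2, Oas3, Rsad2, Eif2ak2, Ifih1, Ifi203, Stat2 and Trim30a. Isg20, Irf7 and Oasl2 had windows in which these letters do not occur. The windows of the listed genes held a median of 6 CpG dinucleotides, the substrate of Dnmt1, against 7 in all windows.

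**Figure D1:**
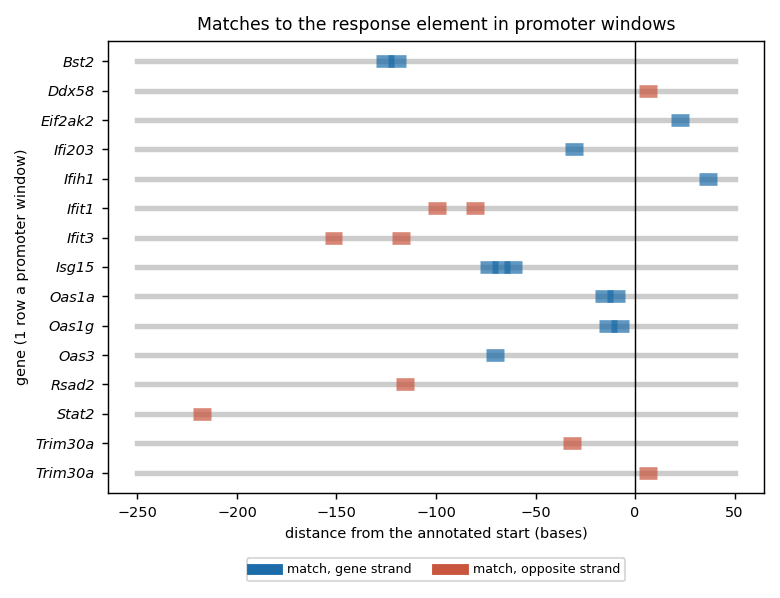
Matches to the response element in the promoter windows of listed genes that hold one, each grey bar a window from 250 bases before to 50 bases after the annotated start at 0. Blue blocks lie on the gene's strand and red blocks on the opposite strand. The Isg15, Oas1a, Oas1g and Bst2 blocks are overlapping matches.

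Across the 35 measured genes, 4 were higher in the knockout at a Benjamini-Hochberg adjusted p under 0.05 in limma, 0 were lower and 31 did not pass. The 4 were the effector genes Isg20, Oas2 and Oas1a and the signalling gene Usp18. Of all 12700 genes, 1.33% were called higher and 0.575% lower. At an unadjusted limma p under 0.05, 19 of the 35 were higher and 0 lower, against 8.67% and 9.29% of all genes. All 3 knockout arrays lay above all 3 wild type arrays for 17 of the 35, against 11.1% of all genes, and below them for 1, Samhd1, against 14.1%. A positive difference was found in 25 of the 35, against 46.3% of all genes. The median difference, knockout minus wild type, was 0.31 on the log2 scale over the 35 genes and -0.01 over all genes tested, with single genes between -0.19 and 1.16. In these bulk samples more cells of a type and more RNA per cell cannot be told apart.

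The 4 calls depended on single arrays. Without knockout replicate 1, 10 of the genes were called higher, namely Isg20, Usp18, Oas2, Oas1a, Oas3, Oasl1, Oasl2, Mx1, Mx2 and Irf7. Without knockout replicate 2 these were Isg20 and Usp18, and without knockout replicate 3 only Isg20. Without wild type replicate 2 only Isg20 was called, and without wild type replicate 1 or 3 the count was 0, with limma adjusted p for Isg20 of 0.0933 and 0.0884. The difference itself stayed within 0.64 and 0.73 for Isg20, 0.69 and 0.89 for Usp18, 0.83 and 1.12 for Oas2 and 0.78 and 1.12 for Oas1a, whichever array was left out. The highest limma adjusted p over these fits was 0.147 for Usp18, 0.175 for Oas2 and 0.180 for Oas1a. The count over all genes moved as well, from 169 called higher with all arrays. Without knockout replicates 1, 2 and 3 in turn it was 360, 176 and 92. Without wild type replicates 1, 2 and 3 in turn it was 19, 42 and 16.

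**Figure D2:**
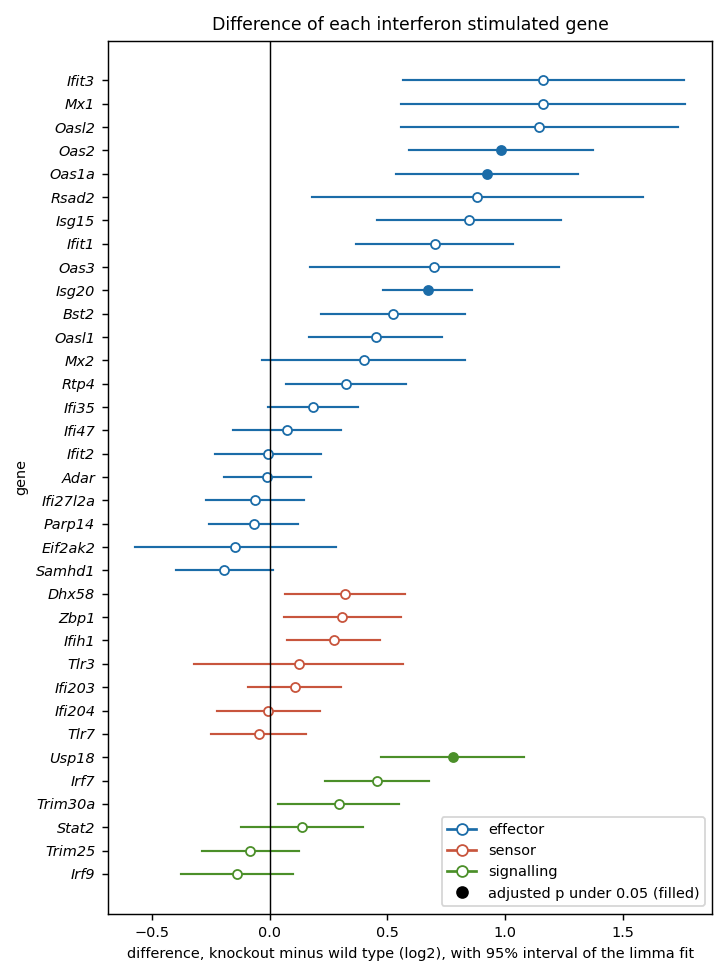
Difference between the groups for each of the 35 genes, as knockout minus wild type on the log2 scale, with the 95% interval of the limma fit, ordered by role. Filled points mark the 4 genes with an adjusted p under 0.05. Effectors reach from -0.19 for Samhd1 to 1.16 for Ifit3.

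Among 22 measured antiviral effectors, 3 were called higher and 19 did not pass, against 1.33% of all genes called higher. A positive difference was found in 16, against 46.3% of all genes. At an unadjusted limma p under 0.05, 13 were higher and 0 lower, against 8.67% and 9.29% of all genes. The median difference was 0.49, against -0.01 over all genes. Isg20, a 3′ to 5′ exonuclease that degrades single-stranded RNA, had 9.28, 9.21 and 9.28 in knockout replicates 1, 2 and 3, against 8.53, 8.70 and 8.52 in wild type replicates 1, 2 and 3. The knockout arrays lay close together and all above the wild type arrays. The difference was 0.67 (SE 0.08), a 1.59-fold level, with a limma adjusted p of 0.0162.

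The oligoadenylate synthetases make a second messenger that activates the RNA-cleaving enzyme RNase L, and the genes Oas2, Oas3 and Oas1a lie in 1 gene cluster. Oas1a had 9.05, 9.52 and 9.72 in the knockout and 8.55, 8.55 and 8.43 in wild type, so the groups did not overlap and the knockout arrays were spread more widely. It was 1.90-fold higher (limma adjusted p = 0.0423). Oas2 had 7.90, 8.10 and 8.45 in the knockout and 7.02, 7.43 and 7.05 in wild type, a 1.98-fold difference (limma adjusted p = 0.0374) with no overlap. Oas3 had 7.44, 8.06 and 8.21 in the knockout and 7.30, 7.44 and 6.87 in wild type, where the lowest knockout array met the highest wild type array and the call was not reached (difference 0.70, SE 0.23, adjusted p = 0.172).

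The Oas-like genes Oasl2 and Oasl1 are immediate neighbours in the RefSeq table. Oasl2 had 6.41, 6.84 and 7.28 in the knockout and 5.76, 6.03 and 5.31 in wild type. Its difference of 1.15 (SE 0.25) was larger than that of Oas2, but the spread in both groups was larger too and the adjusted p was 0.0738. Oasl1, known in mice as a translational inhibitor of Irf7, had 6.82, 7.13 and 7.23 in the knockout and 6.64, 6.70 and 6.49 in wild type (difference 0.45, adjusted p = 0.120).

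The Ifit family encodes proteins with tetratricopeptide repeats that bind foreign or incompletely capped RNA. Ifit3 had 8.36, 8.41 and 9.06 in the knockout, against 7.58, 7.79 and 6.96 in wild type, a difference of 1.16 (SE 0.26, 95% interval 0.57 to 1.76) that did not pass (limma adjusted p = 0.0738). Ifit1 had 9.15, 9.09 and 9.37 in the knockout and 8.58, 8.71 and 8.22 in wild type (difference 0.70, adjusted p = 0.0603). In both genes the groups did not overlap.

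Ifit2, with no protein-coding gene between it and Ifit3 in the RefSeq table, had another pattern. Its values were 8.55, 8.34 and 8.61 in the knockout and 8.58, 8.52 and 8.43 in wild type. The groups overlapped, and the 95% interval of the difference ran from -0.23 to 0.22, below the lower bound of Ifit3 and of Ifit1 (0.37). Whether Ifit2 differs from these genes in its response was not tested.

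Mx1 and Mx2 encode dynamin-like GTPases that trap viral components, and in the C57BL6 strain Mx1 is known to be disrupted by a deletion. Mx1 had 6.94, 7.64 and 8.03 in the knockout and 6.43, 6.54 and 6.16 in wild type. The groups did not overlap. With an SD of 0.55 among knockout arrays, the difference of 1.16 had a limma adjusted p of 0.0753. Mx2 had 5.33, 6.12 and 5.79 in the knockout and 5.28, 5.44 and 5.32 in wild type, and knockout replicate 1 lay among the wild type arrays (difference 0.40, adjusted p = 0.311).

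**Figure D3:**
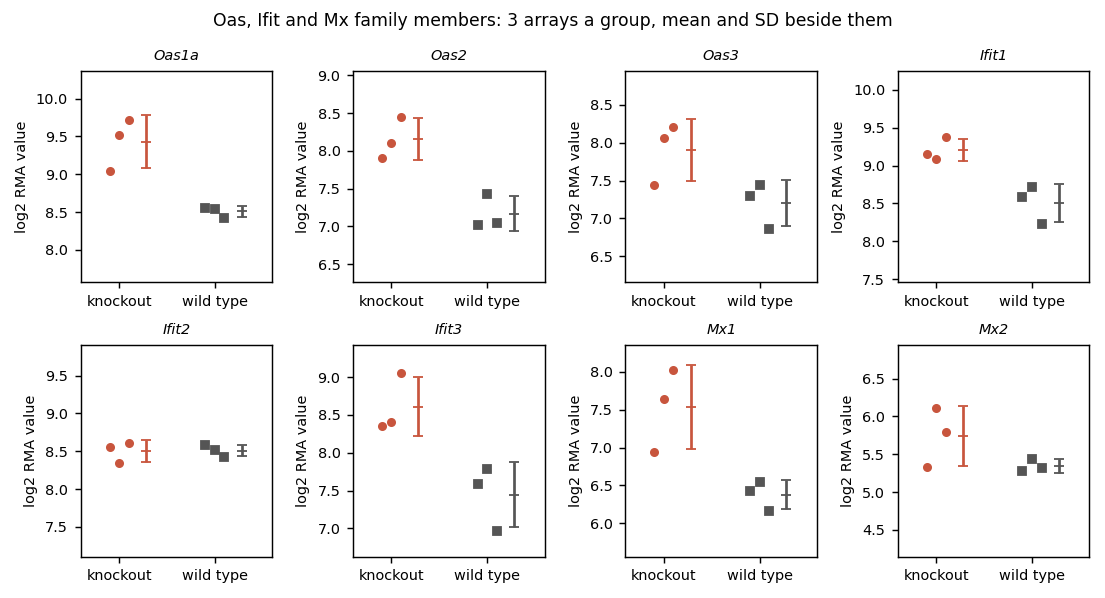
Log2 RMA values of Oas, Ifit and Mx family members, with 3 knockout arrays (circles) left of 3 wild type arrays (squares) and the group mean with SD beside them. Each panel has its own range of equal height. Ifit2 overlaps between the groups, while Ifit1 and Ifit3 do not.

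Isg15, which encodes a ubiquitin-like modifier, had 8.91, 8.87 and 9.23 in the knockout and 8.37, 8.30 and 7.81 in wild type (difference 0.85, adjusted p = 0.0561). Rsad2, coding for viperin, which makes a chain-terminating nucleotide, had 7.996, 8.55 and 9.13 in the knockout and 7.69, 8.07 and 7.28 in wild type. Viperin's gene had the greatest SD among the knockout values of the set (0.57), and knockout replicate 1 lay below wild type replicate 2 (difference 0.88, adjusted p = 0.191). Its other probe sets had differences of 0.49 and 0.66, also uncalled. Bst2, coding for tetherin, which holds budding virions at the membrane, had 9.16, 9.02 and 9.35 in the knockout and 8.72, 8.82 and 8.42 in wild type (difference 0.52, adjusted p = 0.104). Rtp4, first described as a receptor transporter protein, was at 9.43 ± 0.08 in the knockout and 9.11 ± 0.18 in wild type (SD, n = 3 each) (difference 0.32). Ifi35, coding for a leucine zipper protein, had a difference of 0.18 (SE 0.08). In Bst2, Rtp4 and Ifi35 the groups did not overlap, and none of the 3 passed.

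The remaining effectors differed little. Samhd1, a phosphohydrolase that depletes the nucleotide pool, had 10.72, 10.62 and 10.49 in the knockout and 10.78, 10.88 and 10.75 in wild type, all knockout arrays being lower (difference -0.19, adjusted p = 0.306). Another Samhd1 probe set had a difference of -0.05. Ifi27l2a (11.83 ± 0.13 in the knockout and 11.89 ± 0.05 in wild type), the interferon-inducible GTPase gene Ifi47 (11.33 ± 0.16 and 11.25 ± 0.03) and the RNA-editing gene Adar (8.15 ± 0.10 and 8.16 ± 0.03) overlapped between the groups. So did the ADP-ribosyltransferase gene Parp14 (difference -0.07) and Eif2ak2, coding for the RNA-dependent kinase PKR that stops translation (-0.15, SE 0.18). The 95% intervals of these 6 genes and Ifit2 ended at 0.30 (Ifi47) or lower on the log2 scale after rounding, so a difference of the size seen in Isg20 lay outside them.

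**Figure D4:**
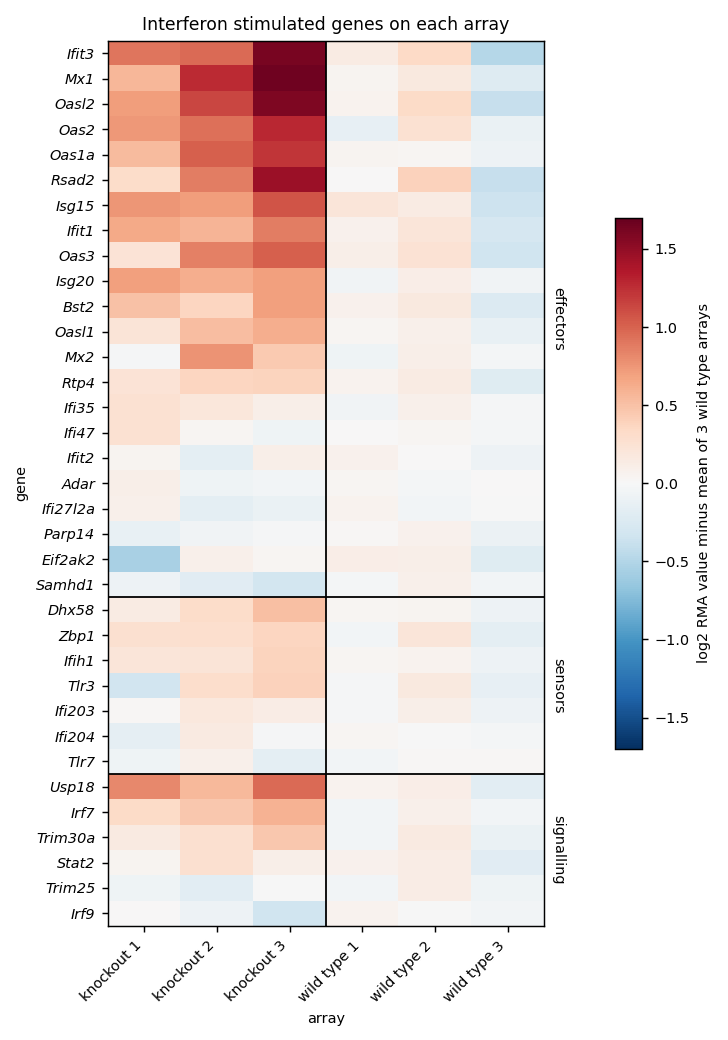
Log2 RMA value of each of the 35 genes on each array minus the mean of the 3 wild type arrays, knockout arrays on the left, grouped as effectors, sensors and signalling genes. Red is above and blue below the wild type mean. Knockout replicate 3 has the deepest red, and wild type replicate 3 is mostly blue.

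Of 7 measured sensors, 0 passed. A positive difference was found in 5, against 46.3% of all genes. At an unadjusted limma p under 0.05, 3 were higher and 0 lower, against 8.67% and 9.29% of all genes. The 3 were Ifih1, Dhx58 and Zbp1, and in each of them the groups did not overlap. Ifih1, coding for MDA5, which recognises long double-stranded RNA, had 8.41, 8.42 and 8.58 in the knockout and 8.22, 8.25 and 8.11 in wild type (difference 0.27, SE 0.08, adjusted p = 0.158). Dhx58, coding for LGP2, a relative of MDA5 that modulates its signalling, had 7.55, 7.73 and 7.93 in the knockout and 7.45, 7.47 and 7.33 in wild type (difference 0.32, adjusted p = 0.189). Zbp1, a sensor of Z-form nucleic acids that can start necroptosis, had 8.84, 8.84 and 8.92 in the knockout and 8.51, 8.77 and 8.40 in wild type (difference 0.31, adjusted p = 0.195). A second Zbp1 probe set had a difference of 0.37, also with no overlap (adjusted p = 0.0800 over all probe sets).

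The endosomal and DNA sensors did not separate. Tlr3, a receptor for double-stranded RNA, had 3.79, 4.42 and 4.51 in the knockout and 4.09, 4.28 and 3.98 in wild type, below the level of the median gene on all arrays. Tlr7, a receptor for single-stranded RNA, was at 6.74 ± 0.13 in the knockout and 6.79 ± 0.04 in wild type. The HIN domain genes Ifi203 and Ifi204, whose probe sets are shared with relatives, had differences of 0.11 and -0.01. The Ifi204 probe set that carries no other symbol had a low level, 3.04 in the knockout and 2.67 in wild type (difference 0.37, adjusted p = 0.232 over all probe sets).

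Of 6 signalling genes, 1 was called higher, against 1.33% of all genes. A positive difference was found in 4, against 46.3% of all genes. At an unadjusted limma p under 0.05, 3 were higher and 0 lower, against 8.67% and 9.29% of all genes. The called gene was Usp18, a protease that removes Isg15 from proteins and also dampens signalling at the interferon receptor. It had 9.42, 9.15 and 9.56 in the knockout and 8.66, 8.71 and 8.42 in wild type, with no overlap. The difference was 0.78 (SE 0.13), a 1.71-fold level (limma adjusted p = 0.0348). Irf7, the transcription factor that amplifies production of interferon alpha, had 8.90, 9.03 and 9.17 in the knockout and 8.53, 8.67 and 8.54 in wild type. These groups did not overlap either, and the difference of 0.46 (SE 0.09) had an adjusted p of 0.0645.

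Stat2 and Irf9, which take part in ISGF3, did not separate. Stat2 had 6.40, 6.62 and 6.46 in the knockout and 6.43, 6.47 and 6.16 in wild type (difference 0.14, adjusted p = 0.564). Irf9 had 9.14, 9.04 and 8.80 in the knockout and 9.19, 9.12 and 9.09 in wild type (difference -0.14, 95% interval -0.38 to 0.10). Trim25, a ubiquitin ligase of the RIG-I pathway, was at 9.61 ± 0.09 in the knockout and 9.69 ± 0.11 in wild type. Trim30a, known in mice to restrain Toll-like receptor signalling, was at 9.43 ± 0.16 and 9.14 ± 0.13 (adjusted p = 0.230), and its other probe sets had differences of 0.05 and -0.05.

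Genes that act before the listed ones were taken as lists of interferon ligands, receptors and kinases, nucleic acid adaptors, and brakes of the response. Of 61 such genes 47 were measured, by 39 probe sets, since 9 interferon alpha family genes share 1 probe set. Limma called 0 of the 39 higher and 0 lower, against 1.33% and 0.575% of all genes. At an unadjusted limma p under 0.05, 2 were higher and 7 lower, against 8.67% and 9.29% of all genes. Without knockout replicate 1, Ifngr1, a chain of the interferon gamma receptor, was called higher (difference 0.73, adjusted p = 0.0393), and its partner chain Ifngr2 (-0.47, adjusted p = 0.0376) and the kinase gene Ikbke (-0.48, adjusted p = 0.0370) lower.

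Of the 7 ligand probe sets, 5 lay below the median gene on all arrays. Ifnb1, coding for interferon beta, was at 3.81 ± 0.04 in the knockout and 3.79 ± 0.03 in wild type, and the shared interferon alpha probe set, which represents Ifna1, at 4.84 ± 0.27 and 4.77 ± 0.15. The ligand with the lowest p was Ifng, coding for interferon gamma, at 8.16 ± 0.75 in the knockout and 7.48 ± 0.23 in wild type (adjusted p = 0.343), followed by Ifnz with a difference of 0.10.

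Both chains of the type I receptor had lower values in the knockout without passing. Ifnar1 was at 7.59 ± 0.20 in the knockout and 7.97 ± 0.04 in wild type (difference -0.38, adjusted p = 0.140). Ifnar2 also had lower values on all knockout arrays (difference -0.37, SE 0.10, adjusted p = 0.123). Ifngr2 was at 7.16 ± 0.14 in the knockout and 7.55 ± 0.08 in wild type (adjusted p = 0.0983), with no overlap in any of these 3 genes. Ifngr1 was higher on all knockout arrays, at 9.67 ± 0.36 in the knockout and 9.11 ± 0.09 in wild type, and did not pass either (difference 0.56, adjusted p = 0.152). Of the adaptors, Ikbke was at 9.73 ± 0.17 and 10.12 ± 0.07 (adjusted p = 0.114), and Sting1, which relays signals from the cytosolic DNA sensor cGAS, at 9.37 ± 0.16 and 9.70 ± 0.08 (adjusted p = 0.148). Of the brakes, the phosphatase gene Ptpn11 had a difference of -0.24 (adjusted p = 0.193), and Nlrx1 one of 0.19 (adjusted p = 0.336).

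The interferon stimulated genes also varied within the groups, and in a shared order. Knockout replicate 3 held the highest knockout value in 23 of the 35 genes, against 30.4% of all genes, and knockout replicate 1 the lowest in 21, against 33.0%. Wild type replicate 3 held the lowest wild type value in 28, against 32.0%. The mean over the 35 genes was 8.43, 8.58 and 8.69 in knockout replicates 1, 2 and 3 and 8.21, 8.31 and 8.05 in wild type replicates 1, 2 and 3. The groups did not overlap in this mean. Across the 35 genes, those with a wider spread among wild type arrays also tended to have a wider spread among knockout arrays (Pearson's r = 0.59 and Spearman's rho = 0.40 between the SDs, against 0.33 and 0.17 over all genes). These are descriptions across genes that share the same 6 arrays and are not independent replicates.

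Markers of other cells were measured on the same arrays, and their part in the differences was not tested. Neutrophil markers, 16 measured, all had a positive difference, against 46.3% of all genes. Of the 16, 10 were called higher, against 1.33% of all genes, and 2 lay below the median gene on all arrays. Their mean was 7.78, 9.78 and 8.44 in knockout replicates 1, 2 and 3, against 5.93, 6.12 and 5.75 in wild type replicates 1, 2 and 3. Among the brightest of them, S100a8 was at 12.95 ± 0.76 in the knockout and 9.49 ± 0.40 in wild type (limma adjusted p = 0.0103). Knockout replicate 2 held the highest knockout value of all 16 neutrophil markers. It did so in 6 of the 35 interferon stimulated genes, against 4214 of all 12700 genes. Knockout replicate 1 held the lowest knockout value of 15 neutrophil markers and of 21 of the 35 genes. Wild type replicate 3 held the lowest wild type value of 10 neutrophil markers and of 28 of the 35 genes. With knockout replicate 2 left out, 2 of the 35 genes were called higher in place of 4, and 176 of all genes in place of 169. The median difference of the 35 was then 0.30 on the log2 scale. The neutrophil marker means of the other knockout arrays still lay above all wild type arrays. That fit therefore does not separate the 35 genes from the neutrophil markers, and a link between them was not tested.

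Of monocyte and macrophage markers, 13 were measured, with 7 below the median gene on all arrays, and 1 was called higher. A positive difference was found in 12, against 46.3% of all genes. At an unadjusted limma p under 0.05, 7 were higher and 0 lower, against 8.67% and 9.29% of all genes. All knockout arrays lay above all wild type arrays in 4 of the 13, against 11.1% of all genes. The means of the 13 were 6.17, 6.65 and 6.45 in knockout replicates 1, 2 and 3. In wild type replicates 1, 2 and 3 they were 5.92, 5.95 and 5.58. Markers of plasmacytoid dendritic cells, which are known for high interferon alpha output, had means of 6.94 to 7.22 in the knockout and 7.13 to 7.66 in wild type over 8 probe sets, with 0 called and 2 below the median gene. This list shares Bst2 with the interferon stimulated genes, and with Bst2 left out (chosen after seeing the data) the means of the other 7 were 6.62 to 6.97 in the knockout and 6.94 to 7.49 in wild type. B cell markers had 6.23 to 7.09 in the knockout and 6.36 to 7.62 in wild type over 8 probe sets, with 0 called and 2 below the median gene. Natural killer and CD8 T cell markers had 7.89 to 8.69 in the knockout and 7.93 to 8.13 in wild type over 10, with 1 called higher and 0 below the median gene.

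The labelled cell type was checked against its own markers, of which 0 of 9 for T cells and 1 of 11 for Treg lay below the median gene on all arrays. T cell markers had means of 10.59 to 10.89 in the knockout and 10.80 to 10.92 in wild type over 9 probe sets. Limma called 0 of the 9, against 1.33% of all genes higher and 0.575% lower. Treg markers, 11 measured, had means of 9.17, 8.83 and 8.54 in knockout replicates 1, 2 and 3, against 9.12 to 9.22 in wild type. Of the 11, 3 were called lower, against 0.575% of all genes. Foxp3, which was not among these 3, had 9.28, 8.82 and 8.43 in the knockout and 9.47, 9.51 and 9.51 in wild type (limma adjusted p = 0.142). The knockout array with the highest interferon stimulated gene mean had the lowest Foxp3 value. The targeted gene Dnmt1 had 8.67, 8.89 and 9.34 in the knockout and 9.56, 9.43 and 9.50 in wild type (difference -0.53, adjusted p = 0.153), and that same array had the highest Dnmt1 value of its group. A second Dnmt1 probe set was lower on all knockout arrays too (difference -0.72, limma adjusted p = 0.113 over all probe sets). No source used here places either probe set inside or outside the deleted part. With 3 arrays a group, whether these orders are related was not tested.

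**Figure D5:**
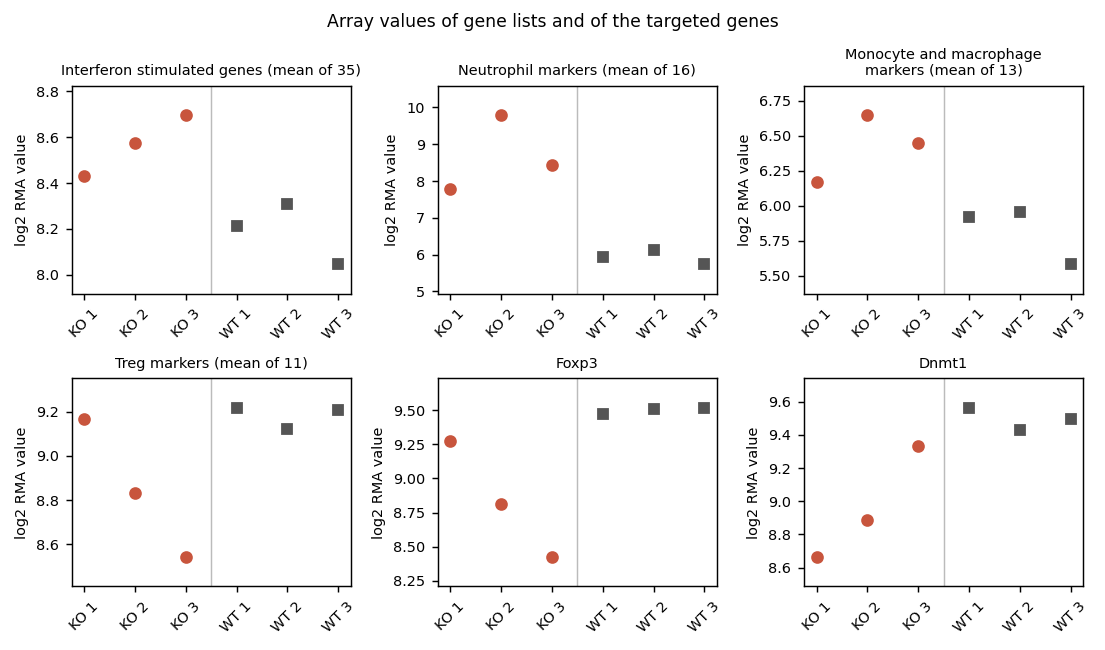
Log2 RMA values on each array, knockout (KO, circles) left of wild type (WT, squares): means of the 35 interferon stimulated genes, 16 neutrophil markers, 13 monocyte and macrophage markers and 11 Treg markers, and the levels of Foxp3 and Dnmt1. The interferon stimulated gene mean is highest in knockout replicate 3 (8.69) and the neutrophil mean in knockout replicate 2 (9.78). Vertical axes differ between panels and do not start at 0.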

How the data were processed

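Expression was measured on 6 arrays, 3 Dnmt1 knockout and 3 wild type, grouped by the genotype labels. The deposited log2 values of 22690 probe sets were made by the authors with RMA, per the submitters' processing notes, which state neither version nor settings. RMA compresses low transcripts towards a floor and does not measure total RNA per cell. The values ran from 1.93 to 14.7, with array medians of 5.70 to 5.77. Precision is limited by the number of arrays. Gene symbols came from GEO's annotation of the array, some of which may be outdated: 20380 had 1 symbol, 691 several, 1555 none and 64 were controls. Names, neighbours and promoters came from RefSeq tables of GRCm38.p6.

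Each symbol was represented by its brightest probe set, and a probe set representing several genes entered once, which gave 12700 rows. A linear model with moderated variance (limma 3.58.1, R 4.3.3) gave two-sided tests with no filter on dim probe sets, and p-values were adjusted over all rows by the Benjamini-Hochberg method. Differences are knockout minus wild type and errors of means are SD over 3 arrays. The fit was tested on simulated data. The members, their roles and all lists were chosen with earlier results of these data known, so no list was tested as a set. All measured members may be named; of the upstream lists, called genes or the 2 with the lowest p, and both type I receptor chains, were named. Ifngr1, Ifnb1 and Ifna1 were named after their values were seen. Plots used Python 3.11.15 and matplotlib 3.10.9.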

Additional observations from a re-analysis of the deposited data

How the results depend on the processing

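The number of listed genes called higher (4) was 7 with the dimmest 40% of genes left out, with trend and robust variance and with array weights. It was 6 with cyclic loess, which added Ifit1 and Isg15. The number was 1 with a replicate block and between 0 and 10 with an array left out. For effectors (3) these counts were 5 in those 3 fits and with cyclic loess, 1 with the block and 0 to 8 with an array left out. For signalling genes (1) they were 2 in the same 3 fits, 0 with the block and 0 to 2 with an array left out. No sensor was called higher in any of these fits, and no listed gene was called lower (0). Quantile normalisation, median centring, probe set averages and single-symbol probe sets gave the same 4 called genes. The upstream genes had 0 calls except without knockout replicate 1, with 1 higher and 2 lower. Over all genes, 169 were higher and 73 lower. The lower count was 121 with trend and robust variance, 112 with array weights and 37 with the replicate block, and leaving out an array gave 16 to 360 higher and 3 to 185 lower. The median difference of the listed genes stayed between 0.23 and 0.37.

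The labels state no pairing of the samples by replicate number. Deviations of same-numbered arrays correlated at -0.07, 0.14 and -0.03, and those of differently numbered arrays at -0.15 to 0.19. With 3 arrays a group these values cannot decide whether samples were paired. Under the block, Isg20 remained called and Usp18, Oas2 and Oas1a did not.

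Signs turned only in genes that were uncalled both times. Ifit2 was at 0.015 with quantile normalisation, 0.046 with cyclic loess and 0.022 with array weights, and at -0.062 to 0.074 with an array left out. Adar was at 0.011 with quantile normalisation, 0.043 with cyclic loess and -0.064 to 0.024 with an array left out. Ifi204 was at 0.044 with cyclic loess, 0.37 by its single-symbol probe set alone, 0.18 with probe set averages and -0.087 to 0.064 with an array left out. Probe set averages gave 0.027 for Tlr7 and 0.034 for Trim25. With an array left out, Ifi47 was at -0.016 to 0.15, Eif2ak2 at -0.26 to 0.061, Tlr3 at -0.012 to 0.35 and Tlr7 at -0.11 to 0.0093. Dimmer probe sets had the opposite sign for Dhx58 (-0.14, against 0.32 for its brightest), Ifi203 (-0.0050), Tlr7 (0.13), Trim25 (0.20) and Trim30a (-0.054, against 0.29). The causes were not tested. For values near the floor of RMA, as in Tlr3, small differences cannot be resolved.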
